A study of Mus musculus with 4 samples.

Results

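Layer 6 corticothalamic (L6 CT) neurons were examined in single-nucleus RNA sequencing of mouse cortex and hippocampus. A nucleus was kept when more than 600 genes were detected in it and less than 5% of its unique molecular identifiers (UMIs, each standing for 1 captured RNA molecule) fell on mitochondrial genes. Kept nuclei were taken as L6 CT when they held at least 2 UMIs of Slc17a7, the vesicular glutamate transporter of cortical excitatory neurons, at most 1 UMI of Gad1 and Gad2 together, at least 2 UMIs of Foxp2, and at least 1 UMI of 2 or more of Syt6, Rprm, Trbc1, Arhgap25 and Col5a1. By this rule 1502 of 36094 kept nuclei were L6 CT, out of 15168 glutamatergic nuclei. The 9 genes of the rule chose the nuclei and are therefore described without any test.

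Corticothalamic neurons form the deep output layer of the neocortex that projects back to the thalamus, and they shape the gain of thalamic relay cells through direct excitation and through the reticular nucleus. They also send collaterals to layer 4 and to local interneurons. Their postmitotic identity is set by transcription factors that include TBR1, FOXP2, TLE4 and SOX5. SEL1L is the adaptor of the HRD1 ubiquitin ligase in endoplasmic reticulum-associated degradation (ERAD), the route by which misfolded proteins leave the endoplasmic reticulum (ER) for the proteasome. When ER proteins misfold, the unfolded protein response raises chaperones and ERAD factors through IRE1α and ATF6, and the kinase PERK feeds the integrated stress response, in which ATF4 raises amino acid transport and synthesis genes and the transcription factor CHOP.

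The 4 libraries came from C57BL/6J mice of 5 weeks, 1 mouse each. They formed 2 groups of 2. Sel1L fl/fl mice carried 2 floxed Sel1l alleles and served as controls. Sel1L SynCre mice carried the same floxed alleles and a Cre transgene driven by the Synapsin I promoter, which is active in postmitotic neurons. Loss of SEL1L was not measured per nucleus. Nuclei had been stained, sorted and loaded on the 10x 3′ platform. Replicate libraries were not copies of one another, with a chi-square per degree of freedom of 7.52 in Sel1L fl/fl and 3.59 in Sel1L SynCre.

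L6 CT nuclei numbered 558 and 292 in Sel1L fl/fl replicates 1 and 2, and 312 and 340 in Sel1L SynCre replicates 1 and 2. Their summed UMIs were 9440054, 4082383, 4406422 and 4830489 in the same order. The median L6 CT nucleus held 14366.5, 12262.5, 12864.5 and 12064.5 UMIs, close to the 11890 to 12643 of other glutamatergic nuclei. No barcode was that of an L6 CT nucleus in 2 libraries, and each pair of libraries shared 9 to 32 barcodes of kept nuclei.

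One library went against its label. Sel1L fl/fl replicate 1 held 490 UMIs of the added Cre sequence over its kept nuclei, 11 of them in L6 CT nuclei, whereas Sel1L fl/fl replicate 2 held 0. The Sel1L SynCre libraries held 262 and 260 over their kept nuclei, 5 and 8 of them in L6 CT nuclei. Per UMI sequenced this was 3.99 CPM in Sel1L fl/fl replicate 1 and 3.49 and 3.51 CPM in Sel1L SynCre. Sel1l itself (ENSMUSG00000020964, chr12:91806043-91849157, minus strand, GRCm38) reached 97.4 and 89.8 normalised CPM (UMIs scaled to a common library total) in replicates 1 and 2 of Sel1L fl/fl, and 141 and 107 in those of Sel1L SynCre. The log2 fold change was 0.41 ± 0.14 (SE) and did not pass (edgeR adjusted p = 0.291). Without Sel1L fl/fl replicate 1 it was 0.47 (edgeR adjusted p = 0.0391). UMIs at the 3′ end of a transcript need not cover the floxed exon, so this level checks neither label. The replicate numbers also coincided with sex in both genotypes: Xist stood at 1459 and 1418 CPM in the replicate 2 libraries, and Ddx3y, which lies on the Y chromosome, at 40.7 and 37.2 CPM in the replicate 1 libraries.

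Genes outside the rule bore out the label. Hs3st4, a heparan sulphate sulfotransferase and L6 marker, was at 2914 and 2665 CPM in the 2 Sel1L fl/fl libraries and at 2846 and 2544 in Sel1L SynCre. Other glutamatergic nuclei held 502 to 556 CPM, intratelencephalic (IT) nuclei, defined by Cux2 or Rorb, 170.3 to 201 CPM, and oligodendrocyte nuclei 16.0 to 51.2 CPM. Tle4, a corepressor of the corticothalamic programme, lay between 558 and 592 CPM against 114 to 126 in other glutamatergic nuclei. At least 1 Hs3st4 UMI was present in 99.7% to 100% of L6 CT nuclei and in 4.66% to 14.1% of oligodendrocyte nuclei, whose median depth was lower (2793.5 to 3472 UMIs). Layer 6b nuclei, the deepest cortical neurons, were not separated by these genes, since they held 2841 to 3088 CPM of Hs3st4 and 709 to 865 of Tle4. They were separated by Crym, a thyroid hormone binding protein, at 81.4 to 99.2 CPM in L6 CT and 10.5 to 26.0 CPM in layer 6b. Zfpm2 (1331 to 1706 and 768 to 936 CPM) and Sox5 (565 to 624 and 319 to 471) were also higher in L6 CT. Nxph3 was lower, at 6.42 to 9.08 and 13.5 to 32.5 CPM. Fezf2, Tbr1, Thsd7b and Ntsr1 overlapped, Ntsr1 at 6.61 to 8.62 and 5.26 to 26.1 CPM. At least 1 Ntsr1 UMI was present in 7.88% to 11.5% of L6 CT nuclei. The layer 6b marker Nxph4 held 1 UMI in all L6 CT nuclei together, but only 3 to 11 per library in layer 6b nuclei. A UMI of any of the 4 layer 6b markers was held by 27, 22, 12 and 18 L6 CT nuclei. Ccn2 was in 2.56% to 6.16% of L6 CT nuclei and 2.18% to 2.51% of other glutamatergic nuclei, Moxd1 in 0.538% to 1.47% and 1.78% to 3.37%. The upper-layer factor Cux2 was at 14.3 to 27.97 CPM against 124 to 142 in other glutamatergic nuclei. These contrasts use the same nuclei that the rule sorted and are descriptions.

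**Figure D1:**
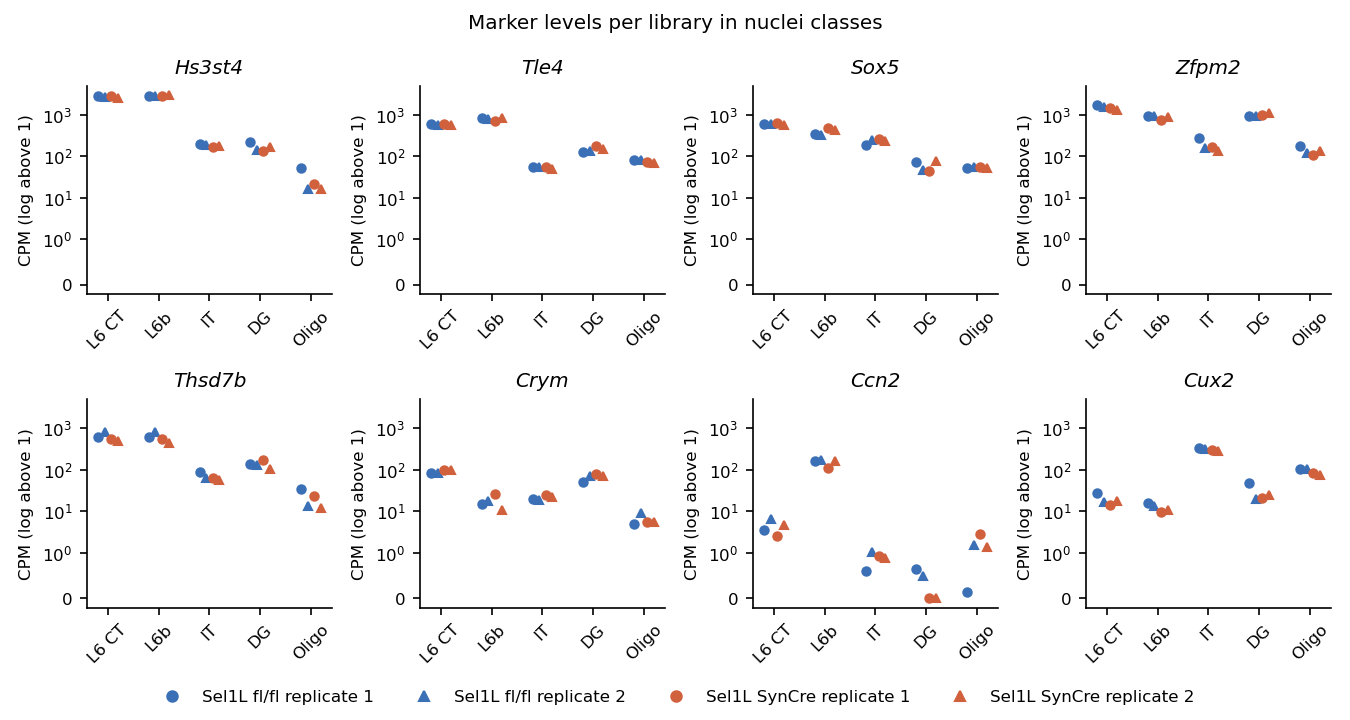
CPM (logarithmic above 1) of 8 genes in L6 CT, layer 6b (L6b), intratelencephalic (IT), dentate granule (DG) and oligodendrocyte nuclei, 1 point per library. Hs3st4 and Tle4 are high in L6 CT and L6b, Crym is higher in L6 CT than in L6b, and Ccn2 and Cux2 are high in L6b and IT nuclei, which were chosen with them.

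Leaving out the genes of the rule, the genes with the largest ratio to other glutamatergic nuclei, among those at 50 CPM or more in every library, were Col12a1, a fibril-associated collagen, Rai14, Rell1, Hs3st4 and Cdh18, a type II cadherin. Col12a1 was at 56.7 to 95.1 CPM in L6 CT nuclei against 8.42 to 14.7 CPM, a mean log2 ratio of 2.68. Glra2, the glycine receptor alpha 2 subunit, was at 63.1 to 72.0 CPM against 10.1 to 15.3. Grik3, a kainate receptor subunit, was at 350.1 to 532 CPM against 77.0 to 112. Most of these did not set L6 CT nuclei above layer 6b nuclei, which held 207 to 290.2 CPM of Rai14, 4749 to 5561 of Cdh18, 78.3 to 139.5 of Glra2 and 326 to 528 of Grik3. Garnl3 separated L6 CT nuclei, at 879 to 1157 CPM, from layer 6b nuclei, at 271 to 380.1. The genes that stood lowest relative to other glutamatergic nuclei were Cntnap5c and Ntng1, the latter encoding netrin-G1, a presynaptic adhesion protein of thalamocortical and other axons, at 24.4 to 41.3 CPM against 228 to 384. Layer 6b nuclei were also low in both, at 22.3 to 38.7 CPM of Cntnap5c and 15.8 to 45.5 of Ntng1.

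The edge of the rule was gradual. The 574 nuclei with 1 second marker held 1986 to 2415 CPM of Hs3st4, and the 603 members with exactly 2 held 2562 to 2927 CPM. The 522 nuclei with none held 1052 to 1275 CPM, above other glutamatergic nuclei and below the members. The 96 nuclei with 1 Foxp2 UMI, otherwise as members, held 1838 to 2400 CPM, and the 88 members with exactly 2 held 2020 to 2625 CPM.

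L6 CT nuclei were 10.7% and 8.80% of glutamatergic nuclei in Sel1L fl/fl and 9.58% and 10.1% in Sel1L SynCre, so the groups overlapped. The means were 9.74% ± 1.33 and 9.83% ± 0.354 (SD, n = 2 each; exact permutation test, two-sided, p = 1, where 0.333 is the smallest that 2 against 2 allows). Thinning every nucleus to 5000 UMIs leaves out shallower nuclei and also removes marker UMIs that the rule counts. It left 139 and 80 members in Sel1L fl/fl and 68 and 70 in Sel1L SynCre. The shares were then 5.07% ± 0.104 and 4.28% ± 0.0399 (SD, n = 2 each). The genotypes no longer overlapped and the difference turned to -0.790 percentage points (exact permutation p = 0.333). What part marker levels had in these shares was not tested. Dissection and sorting set such shares, so fewer L6 CT cells and fewer nuclei caught cannot be told apart.

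The comparison of the genotypes asked which genes of L6 CT neurons differ when Cre acts on Sel1l. Summed L6 CT counts of the 4 libraries were tested for 13536 genes, and 31 passed a Benjamini-Hochberg adjusted p of 0.05 in edgeR's quasi-likelihood test, 0.229% of those tested. Of these, 22 were higher in Sel1L SynCre (0.163%) and 9 lower (0.0665%), while 1605 genes (11.9%) had an unadjusted p under 0.05. Over all genes tested 21.9% were apart and higher and 21.0% apart and lower in normalised CPM, and the 31, as genes that passed, were all apart. Of the 22 that rose, 10 belonged to the gene lists: 3 to those of ER stress, 5 to that of genes induced by neuronal activity, and 3 to that of genes induced by glucocorticoids, with Per1 in both of the last. All 31 also passed without Sel1L fl/fl replicate 1, the library with Cre UMIs, when 515 genes passed in all. With likely doublets removed 17 genes passed, 14 of them among the 31. Of the 31, 8 passed with at least 4 Foxp2 UMIs and 3 with no filter on low counts. Only 1 passed when the fold change itself was tested against 0.5 on the log2 scale.

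**Figure D2:**
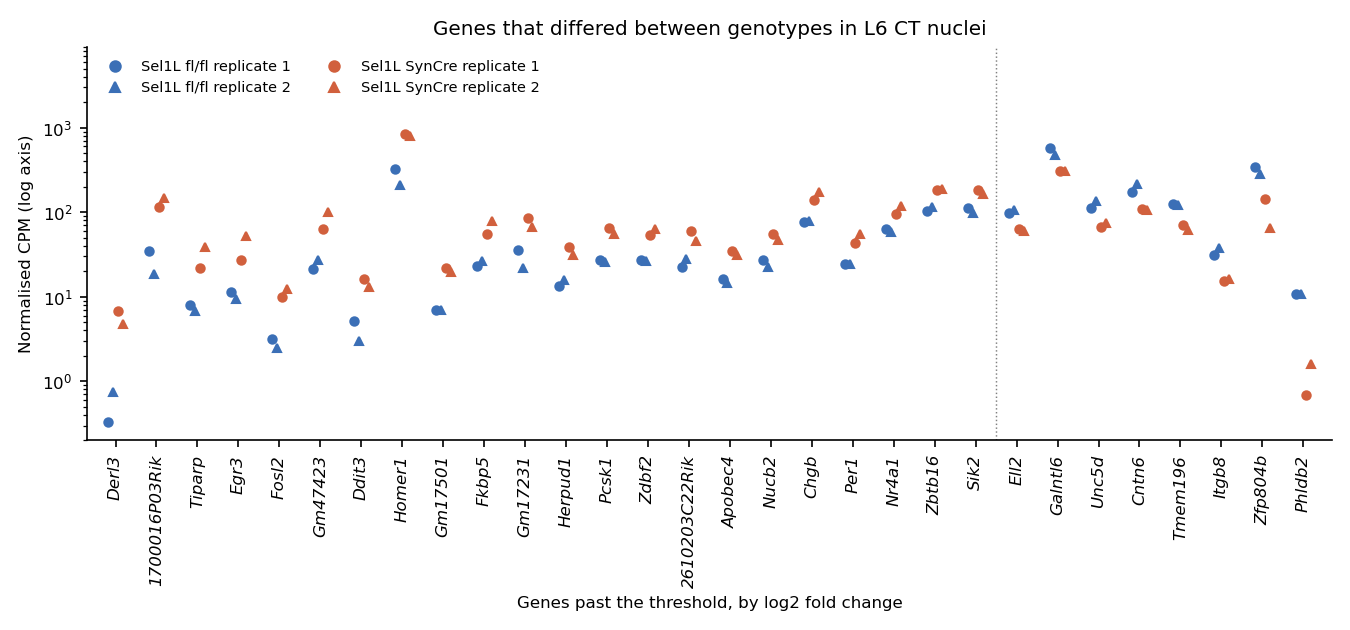
Normalised CPM on a logarithmic axis of 30 of the 31 genes that passed in L6 CT nuclei, 1 point per library, ordered by log2 fold change from Derl3 (3.59) to Phldb2 (-3.18). The dotted line divides the 22 genes that were higher in Sel1L SynCre from 8 that were lower, and no plotted gene's genotypes overlap.

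Of the 25 ERAD genes, 2 passed, Derl3 and Herpud1, both higher, against 0.163% of all genes tested. A further 3 had a positive change at an unadjusted p under 0.05 without passing. That made 5 of the 25, against 874 of the 13536 genes tested. Positive changes were seen in 17 of the 25 and in 6830 of the 13536. Derl3 (chr10:75893413-75895941, plus strand, GRCm38) encodes a derlin, a membrane protein of the retrotranslocation machinery that is induced by ER stress. It held 3 and 3 UMIs in the Sel1L fl/fl libraries and 30 and 24 in Sel1L SynCre, a ratio of 13.2 per UMI sequenced (exact 95% interval 5.68 to 37.5, for counting error only; edgeR adjusted p = 0.0329). With doublets removed it did not pass (edgeR adjusted p = 0.0884). Herpud1 (chr8:94386438-94395377, plus strand), which binds HRD1 and is itself an ER stress target, was at 13.6 and 15.7 normalised CPM in Sel1L fl/fl and at 38.4 and 30.9 in Sel1L SynCre. Its log2 fold change was 1.26 ± 0.18 (SE; edgeR adjusted p = 0.0279). Over the list, the median log2 fold change was 0.12, against 0.00 over all genes tested. The abundant members March6, Ubxn4 and Erlec1 had log2 fold changes of 0.07, 0.18 and 0.21 and did not pass.

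Ddit3 (chr10:127290774-127296288, plus strand), which encodes CHOP, rose from 5.15 and 2.98 to 16.0 and 12.9 normalised CPM (log2 fold change 1.72 ± 0.29, edgeR adjusted p = 0.0478). The files hold a second feature of the same name, and the genes Mars and Gm4189 overlap it on the other strand, so its counts are uncertain to that extent, and it did not pass with doublets removed (edgeR adjusted p = 0.103). None of the 27 ER chaperone genes tested passed, and their median log2 fold change was 0.40. Of these 27, 13 had a positive change at an unadjusted p under 0.05, against 874 of the 13536 genes tested. Hspa5, which encodes the chaperone BiP, was at 25.1 and 26.4 normalised CPM in Sel1L fl/fl and 55.8 and 41.2 in Sel1L SynCre (log2 fold change 0.92, edgeR adjusted p = 0.0666). Dnajc3, a BiP cochaperone, was at 71.2 and 61.9 and at 136 and 99.2 (log2 fold change 0.82, edgeR adjusted p = 0.0724). Hsp90b1, Txndc11 and Dnajc1 had log2 fold changes of 0.58, 0.52 and 0.38, and in each of these chaperone genes the genotypes did not overlap. Without Sel1L fl/fl replicate 1, Dnajc3, Hsp90b1, Txndc11 and Dnajc1 passed, with log2 fold changes of 0.92, 0.74, 0.56 and 0.57. With the replicate number fitted as a block, Dnajc3, Txndc11 and Hsp90b1 passed. Libraries of both genotypes were apart, with Sel1L SynCre higher, in 18 of the 27, against 21.9% of all genes tested.

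In the sensors and the metabolic arm no gene but Ddit3 passed. Hspa5, Slc7a5, Shmt2 and Phgdh, and the channel, receptor and subtype genes given with values further on, were picked after their values were seen. Atf6 and the eIF2α kinase genes Eif2ak4, Eif2ak1 and Eif2ak3 (PERK) had log2 fold changes of 0.02, 0.01, -0.21 and 0.54, and none passed. The 11 amino acid transporter genes tested had a median of 0.38 with none called, led in size by Slc7a5, the large neutral amino acid transporter, at 7.89 and 7.46 against 23.8 and 13.7 normalised CPM (log2 fold change 1.27, edgeR adjusted p = 0.104). Slc38a2, Slc7a8, Slc38a1 and Slc7a6 had log2 fold changes of 0.47, 0.26, 0.07 and 0.13. Among 26 serine and one-carbon genes the median was 0.16 with none called, and the abundant Mat2a, Got1, Mthfd1l and Mat2b stood at 0.10, 0.14, -0.35 and -0.46. Shmt2, the mitochondrial serine hydroxymethyltransferase, and Phgdh, the first enzyme of serine synthesis, had log2 fold changes of 1.14 and 1.09 at under 6 normalised CPM (edgeR adjusted p = 0.321 and 0.408). For cytosolic tRNA synthetases the median over 20 genes was 0.14, for their 17 mitochondrial counterparts -0.06, and none passed. At an unadjusted edgeR p under 0.05, 7 of 21 unfolded protein response sensors and factors were higher and 1 lower. So were 7 and 1 of the 26 one-carbon genes. Of the 11 transporters 4 were higher and 0 lower, and of the 20 cytosolic synthetases 7 and 0. Mitochondrial synthetases had 0 and 0. Over all 13536 genes tested, 874 were higher and 731 lower.

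**Figure D3:**
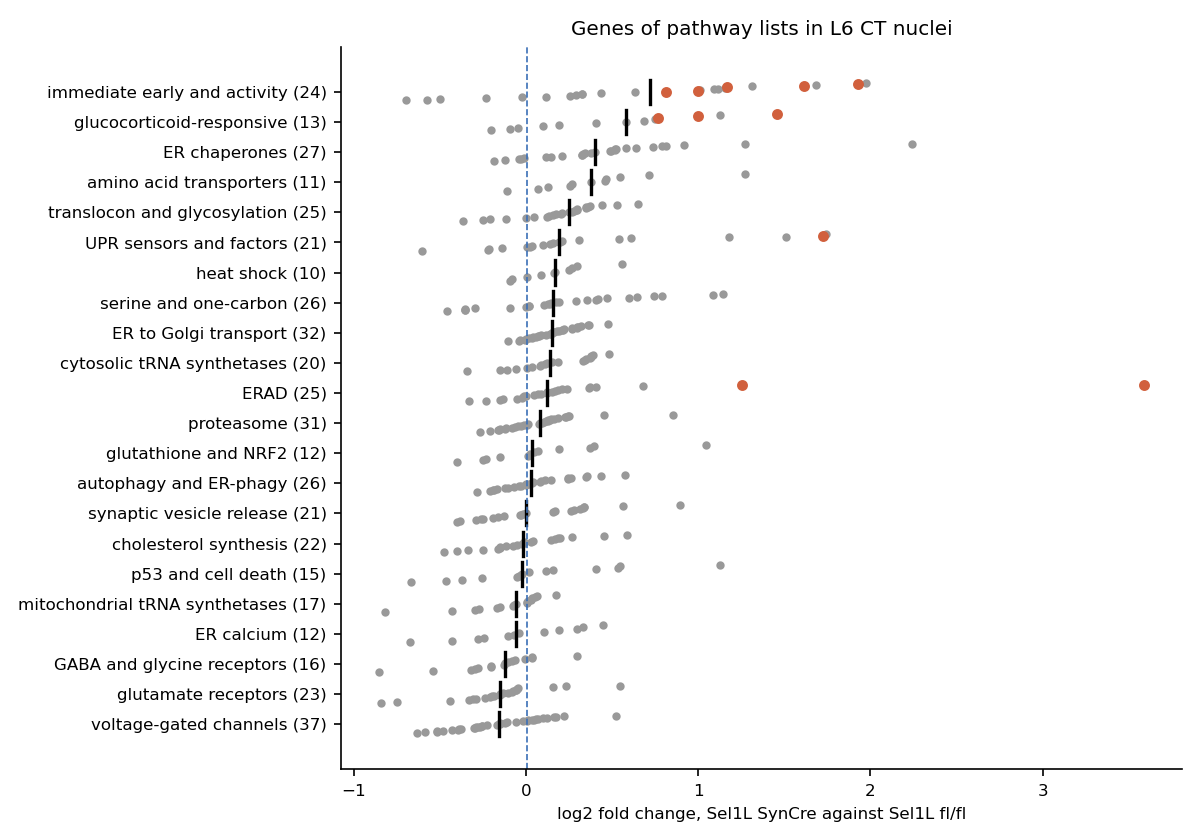
log2 fold changes in L6 CT nuclei, Sel1L SynCre against Sel1L fl/fl, for the tested genes of 22 pathway lists (numbers in brackets), with the median of each list as a black bar and that of all genes as a dashed line. Orange points passed the test. The activity, glucocorticoid and chaperone lists have the highest medians, 0.72, 0.58 and 0.40, and receptors and channels the lowest.

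Genes that synaptic activity is known to induce gave 5 of the calls. Homer1 (ENSMUSG00000007617, chr13:93299635-93405129, plus strand), a postsynaptic scaffold with a short activity-induced form that these counts do not separate, was at 323 and 210.4 normalised CPM in Sel1L fl/fl and at 835 and 802 in Sel1L SynCre. The log2 fold change was 1.61 ± 0.17 (SE; edgeR adjusted p = 0.0139), and 1.96 without Sel1L fl/fl replicate 1. Egr3, an early response transcription factor, rose from 11.3 and 9.45 to 27.2 and 52.6 normalised CPM. Nr4a1, an orphan nuclear receptor of the same kind, rose from 62.6 and 58.4 to 95.9 and 117. Of 24 activity genes tested 5 rose and none fell, with a median log2 fold change of 0.72, against 0.163% of all genes called higher. At an unadjusted p under 0.05, 13 of the 24 were higher and 3 lower, against 874 and 731 of the 13536 genes tested. Npas4, also an activity gene, had the lowest value in the list, -0.69, and did not pass.

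The other activity genes that rose were Pcsk1, the prohormone convertase that opens the processing of neuropeptide precursors, and Per1, a clock gene known for cAMP response elements. Pcsk1 was at 27.5 and 25.6 normalised CPM in Sel1L fl/fl and at 65.0 and 54.8 in Sel1L SynCre (log2 fold change 1.17, edgeR adjusted p = 0.0152). Per1 was at 24.4 and 24.6 and at 42.8 and 55.2 (log2 fold change 1.00, edgeR adjusted p = 0.0403). Outside the lists, Fosl2, an AP-1 subunit, had a log2 fold change of 1.92, and Tiparp, a mono-ADP-ribosyltransferase, one of 2.04. Both rose in each Sel1L SynCre library, Tiparp from 7.89 and 6.72 to 21.7 and 39.2 normalised CPM.

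Among genes that passed, the largest rise after Derl3 was that of 1700016P03Rik (ENSMUSG00000085609, chr11:75172560-75177633, plus strand, GRCm38), a processed transcript that contains the genes of miR-212 and miR-132. It was at 34.9 and 18.7 normalised CPM in Sel1L fl/fl and at 114 and 149 in Sel1L SynCre, a log2 fold change of 2.25 ± 0.24 (SE; edgeR adjusted p = 0.0139). It passed in all 19 alternative fits. Ovca2 overlaps it on the other strand. The cluster is known to be transcribed under CREB in active neurons. The mature sequences, from RefSeq on GRCm38.p6, are shown because both 3p arms carry the same seed, bases 2 to 8, given in capitals. The UMIs count the host RNA and say nothing of the mature miRNAs. They lie at chr11:75173723-75173744 and chr11:75173443-75173464.
mmu-miR-132-3p: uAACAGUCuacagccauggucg
mmu-miR-212-3p: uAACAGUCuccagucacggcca

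Promoters of the genes that rose were searched for 4 motifs on both strands in windows of 250 bases before to 50 after each RefSeq start (GRCm38.p6). The motifs were the cAMP response element TGACGTCA, the CHOP and ATF4 composite element TGATGNAA, the ER stress element (ERSE) and the XBP1 element TGACGTGG. Of the 22 genes 16 had a window, and of the 9 that fell 7 did. The cAMP response element stood in Chgb, Pcsk1 and Zdbf2 and, among genes that fell, in Ell2, whereas 1.79% of all windows and 3.04% of those of genes tested hold it. Its exact sequence was in no window of Per1, Homer1 or Nr4a1. The ER stress element stood in Derl3, in 0.119% of all windows and in 0.130% of those of genes tested. The composite element stood in Herpud1, in 3.97% and in 2.10%. The XBP1 element stood in 0 of 19 windows of genes that rose and 0 of 7 of genes that fell, against 0.676% and 0.849%. Stretches of 60 bases are given in the direction of the gene, with the motif in capitals. In Derl3 and Herpud1 the capitals are the reverse complement. They lie at chr13:75089759-75089818 (Pcsk1), chr2:132781550-132781609 (Chgb), chr10:75893222-75893281 (Derl3) and chr8:94386297-94386356 (Herpud1), all on the plus strand.
Pcsk1: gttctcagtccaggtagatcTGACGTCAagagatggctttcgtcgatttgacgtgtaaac
Chgb: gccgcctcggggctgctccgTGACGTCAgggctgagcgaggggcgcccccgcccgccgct
Derl3: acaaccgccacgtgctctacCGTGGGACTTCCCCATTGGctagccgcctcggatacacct
Herpud1: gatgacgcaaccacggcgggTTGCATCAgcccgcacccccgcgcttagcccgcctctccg

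Of 13 tested genes induced by glucocorticoids, 3 rose and none fell, against 0.163% and 0.0665% of all genes tested, with a median log2 fold change of 0.58. Fkbp5, a cochaperone that restrains the glucocorticoid receptor and is induced by it, was at 22.9 and 26.4 normalised CPM in Sel1L fl/fl and at 55.6 and 78.3 in Sel1L SynCre (log2 fold change 1.46 ± 0.18, edgeR adjusted p = 0.0152). Zbtb16, a zinc finger repressor, was at 104 and 116 and at 185 and 189 (log2 fold change 0.77, edgeR adjusted p = 0.0310). Per1 belongs to this list too. In oligodendrocyte nuclei the summed list stood at 853 and 1185 CPM in Sel1L fl/fl and at 1897 and 2804 in Sel1L SynCre, and in L6 CT nuclei at 778 and 744 and at 966 and 1047. How far the mice differed in glucocorticoid state was not tested.

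Further genes among the 22 were picked out after their values were seen. Chgb, which encodes the granule protein chromogranin B, was at 76.3 and 78.6 normalised CPM and at 139 and 174 (log2 fold change 1.02, edgeR adjusted p = 0.0161), and Nucb2, the nesfatin precursor, had a log2 fold change of 1.02. Zdbf2, an imprinted gene, Sik2, a salt-inducible kinase, Apobec4 and 2610203C22Rik, likewise picked out after their values were seen, also passed, with log2 fold changes of 1.11, 0.72, 1.08 and 1.10. Of the noncoding genes Gm47423, Gm17501 and Gm17231, with 1.77, 1.58 and 1.37, the first is antisense to Ntrk2 and the third to Arid3b. Whether counting used strand is not given in the sources used here, so reads of these antisense genes and of their partners cannot be told apart.

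Of the 9 genes that fell, Phldb2 fell most. Phldb2, which anchors microtubule ends at the cell cortex, fell from 10.8 and 10.7 to 0.687 and 1.59 normalised CPM (log2 fold change -3.18 ± 0.39, edgeR adjusted p = 0.0152). Zfp804b, a zinc finger gene (chr5:6769010-7344756, minus strand), fell from 345 and 282 to 142 and 65.3 (log2 fold change -1.60 ± 0.27, edgeR adjusted p = 0.0478). Cntn6, a contactin of the neuronal surface, fell from 175 and 214 to 108 and 105, and Unc5d, a netrin receptor, from 112 and 134 to 67.7 and 74.7. Itgb8, an integrin subunit, Tmem196, Galntl6, a GalNAc-transferase family gene, and Ell2, a transcription elongation factor, had log2 fold changes of -1.12, -0.89, -0.77 and -0.72.

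Markers of other cell types were measured in the same nuclei. The 8 oligodendrocyte markers together were at 285 and 166 CPM in Sel1L fl/fl L6 CT nuclei and at 122 and 91.9 in Sel1L SynCre. All 8 were apart and lower, against 21.0% of all genes tested, with a median log2 fold change of -1.76, and 1 of the 8 passed and is among the 9 genes that fell. Mbp, the most abundant and the least changed, was at 115 and 68.6 CPM and at 68.1 and 55.9. In the same libraries the number of oligodendrocyte nuclei was 1691 and 945 against 297 and 238. The part of stray oligodendrocyte RNA in the L6 CT comparison was not tested. Summed markers of interneurons (27.9 to 31.1 CPM) and microglia (63.0 to 74.3 CPM) overlapped between genotypes. The layer 6b marker Moxd1 was at 0.530 and 0.735 CPM and at 2.50 and 4.55 (log2 fold change 2.48, edgeR adjusted p = 0.128), while Ccn2, the other layer 6b marker tested, was at 3.496 and 6.61 CPM and at 2.50 and 4.55 (log2 fold change -0.44, edgeR adjusted p = 0.754). All 5 IT markers were negative, with none called and 2 at an unadjusted p under 0.05, against 6706 and 731 of the 13536 genes tested.

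No marker of the cell type itself passed. For 10 identity genes outside the rule the test made no call, with a median log2 fold change of -0.08. Hs3st4 and Tle4 overlapped between genotypes, with -0.11 and -0.08, and the largest value was that of Thsd7b, -0.49 (edgeR adjusted p = 0.214). Among 7 genes that differ between kinds of L6 CT neuron, Nxph2, Wls and Brinp3 had log2 fold changes of -1.04, -0.91 and -0.75 and did not pass (edgeR adjusted p = 0.214, 0.182 and 0.157). These 3 of the 7 were apart and lower, against 21.0% of all genes tested, Gpr139 was the highest at 0.52, and the median of the list was -0.03.

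Receptor and channel genes leaned the other way without any call. For 37 voltage-gated channel genes the median log2 fold change was -0.16, with 15 of 37 apart and lower and 4 apart and higher, against 21.0% and 21.9% of all genes tested. Kcnq5, a subunit of the M-current, was at 1126 and 1009 normalised CPM in Sel1L fl/fl and at 690.0 and 686 in Sel1L SynCre (log2 fold change -0.63 ± 0.12, edgeR adjusted p = 0.0666). The sodium channel gene Scn1a and the calcium channel gene Cacna1b had -0.52 and -0.51 (edgeR adjusted p = 0.0985 and 0.124). Of 23 glutamate receptor genes 20 were negative, with a median of -0.15, and of 16 GABA and glycine receptor genes 13 were, with a median of -0.12. Over all genes tested 6706 of 13536 were negative. Apart and lower were 9 of the 23 and 8 of the 16, and apart and higher 1 of each list. Gabra4, an extrasynaptic GABA receptor subunit, was the lowest in p of these, at 144 and 137 against 95.4 and 98.4 (log2 fold change -0.54, edgeR adjusted p = 0.0926).

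The ER stress genes were spread unevenly over L6 CT nuclei. A load was counted per nucleus as the UMIs on 27 genes of the unfolded protein and integrated stress responses, after thinning each nucleus to 5000 UMIs, which left out 4, 3, 7 and 4 shallower nuclei. The mean load was 1.29 and 1.33 in Sel1L fl/fl and 2.84 and 2.28 in Sel1L SynCre, a ratio of means of 1.95, and the groups did not overlap. A load of 5 or more was held by 11 of 554 and 3 of 289 nuclei (1.99% and 1.04%) in Sel1L fl/fl and by 63 of 305 and 44 of 336 (20.7% and 13.1%) in Sel1L SynCre. In the same libraries 114 and 149 Sel1L SynCre nuclei had a load of 0 or 1. The variance over the mean was 1.16 and 1.13 in Sel1L fl/fl and 2.62 and 2.00 in Sel1L SynCre. Nuclei are not replicates, and these values carry no test. The 27 genes were chosen with earlier results of these data known. All 20 of them that were tested in the summed counts had positive changes. A higher load in Sel1L SynCre is therefore a description and no independent support.

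Other classes give the background of this measure. Mean loads of other glutamatergic nuclei averaged 1.30 and 2.36 in the 2 genotypes, and those of Sst interneuron nuclei 1.71 and 9.84. Oligodendrocyte nuclei, in which the Synapsin I promoter is not active, went from 2.48 ± 0.0325 to 5.22 ± 1.73 (SD, n = 2), among the few deep enough to be thinned. The part of RNA from other cells in the load of L6 CT nuclei was not tested. Cre UMIs were too few to divide the nuclei: with a Cre UMI the summed load genes stood at 186 CPM in 10 nuclei of Sel1L fl/fl replicate 1, at 591 in 5 of Sel1L SynCre replicate 1 and at 551 in 7 of Sel1L SynCre replicate 2. The nuclei without one stood at 244, 545 and 396 CPM.

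Homer1 was not highest where the load was highest. In Sel1L SynCre nuclei with a load of 0 or 1 it was at 923 and 968 CPM, and in those with a load of 5 or more at 854 and 645 (63 and 44 nuclei). Sel1L fl/fl nuclei with a load of 0 or 1 held 306 and 222 CPM. Both Sel1L SynCre libraries were thus above both controls in nuclei with a low load. Sel1l behaved otherwise, at 327 and 186 CPM in Sel1L SynCre nuclei with a load of 5 or more and at 94.7 and 99.3 in those with 0 or 1. Its counts in the nuclei with a load of 5 or more were 103 and 41 UMIs, with exact 95% intervals of 267 to 397 and 134 to 253 CPM for counting error only. Sel1L fl/fl nuclei leaned the same way on few counts. They held 182 and 200 CPM of Sel1l with a load of 5 or more (10 and 3 UMIs). With a load of 0 or 1 they held 101 and 91.1 CPM, so the lean was not particular to Sel1L SynCre.

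**Figure D4:**
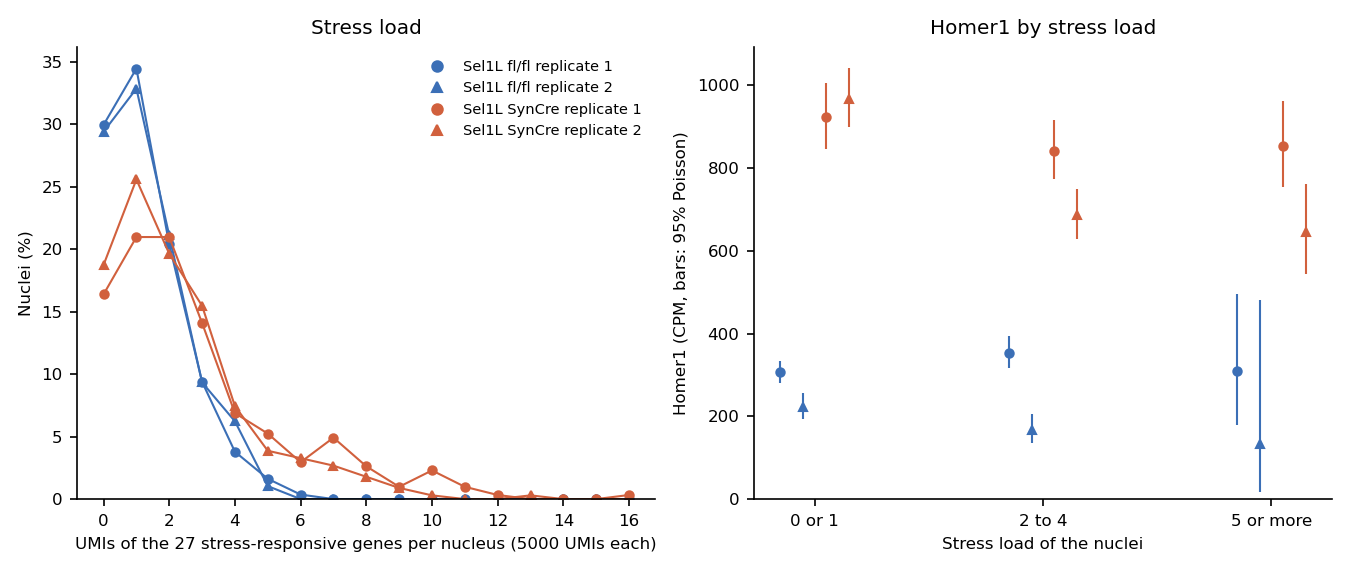
Left, percent of L6 CT nuclei by stress load, the UMIs on 27 genes in nuclei thinned to 5000 UMIs, 1 line per library, with a longer upper tail in both Sel1L SynCre libraries. Right, Homer1 CPM in nuclei grouped by load, with 95% Poisson intervals, where both Sel1L SynCre libraries are above both controls in every group.

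The same genes were then set beside other neurons of the same mice, in which 38 of 19295 genes passed in other glutamatergic nuclei (0.197%) and 287 of 9325 in Sst interneuron nuclei (3.08%). Other glutamatergic nuclei had log2 fold changes of 3.73 for Derl3, 2.03 for 1700016P03Rik, 1.07 for Homer1 and 1.01 for Herpud1, against 3.59, 2.25, 1.61 and 1.26 in L6 CT nuclei. The difference itself was tested as an interaction over 18852 genes, and 3 passed (0.0159%), none of them higher in L6 CT, with 1279 at an unadjusted p under 0.05. The 3 were Zfp804b, Unc5d and Kcnq5, the last named after its value was seen, with an interaction of -0.55. Zfp804b was at 482 and 420.0 normalised CPM in other glutamatergic nuclei of Sel1L fl/fl and at 315 and 203 in Sel1L SynCre, a log2 fold change of -0.80, and its interaction was -0.86 (edgeR adjusted p = 0.0487). Unc5d was at 555 and 627 against 524 and 515, a change of -0.19, with an interaction of -0.62 (edgeR adjusted p = 0.0487). The other glutamatergic nuclei include layer 6b, which was not tested alone. There Zfp804b was at 236 and 306 CPM in Sel1L fl/fl and at 26.0 and 23.7 in Sel1L SynCre, and Unc5d at 248 and 145 and at 39.1 and 55.2, so these lower levels were not particular to L6 CT nuclei. Without either Sel1L fl/fl library or either Sel1L SynCre library, 0 or 1 gene passed and none of these 3. Homer1 (0.54, edgeR adjusted p = 0.118) and Chgb (0.60, edgeR adjusted p = 0.0716) did not pass.

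Sst interneuron nuclei numbered 265. Their interaction with L6 CT nuclei passed for 41 of 13549 genes (0.303%), 10 of them higher in L6 CT. Dnajc3 was at 47.8 and 42.1 normalised CPM in Sst nuclei of Sel1L fl/fl and at 310.2 and 223 in Sel1L SynCre, with an interaction of -1.75 (edgeR adjusted p = 0.00273). Hspa5, picked after its value was seen, had an interaction of -2.05 (edgeR adjusted p = 0.0120). Hsp90b1 (chaperone GRP94) had an interaction of -1.34 (edgeR adjusted p = 0.0161). Sel1l was at 101 and 96.9 in Sst nuclei of Sel1L fl/fl and at 390.1 and 236 in Sel1L SynCre, with an interaction of -1.23 (edgeR adjusted p = 0.0179). Ell2 fell in L6 CT nuclei and had a log2 fold change of 0.54 in Sst nuclei, an interaction of -1.26 (edgeR adjusted p = 0.0246). The Derl3 interaction did not pass (edgeR adjusted p = 0.154), its Sst controls being listed at 0. Without Sel1L fl/fl replicate 1, or without replicate 2, no gene passed this interaction in edgeR, with 1017 and 930 at an unadjusted p under 0.05.

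**Figure D5:**
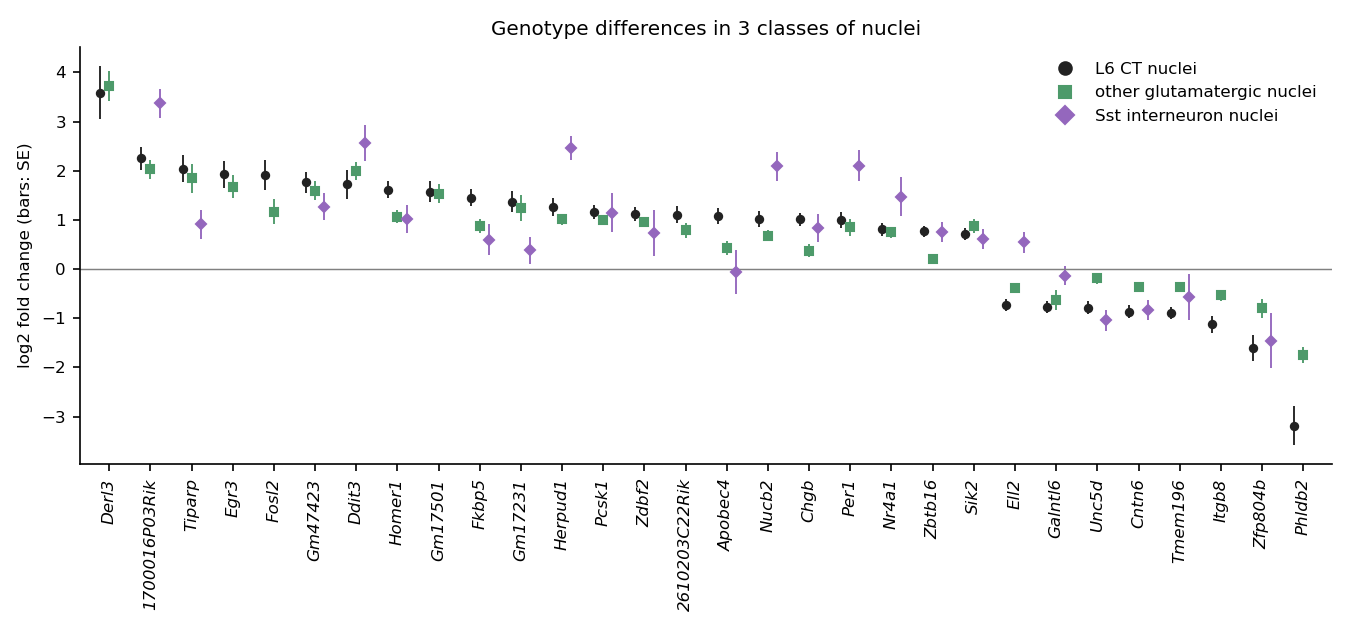
log2 fold changes, Sel1L SynCre against Sel1L fl/fl, of 30 of the 31 genes that passed in L6 CT nuclei, shown for L6 CT, other glutamatergic and Sst interneuron nuclei with standard errors as bars. Genes not tested in a class, or at 0 in its controls, have no point there.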

How the data were processed

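Single-nucleus libraries of 4 mice were analysed from the raw UMI counts per gene and barcode that the authors deposited as 10x matrices. Per the submitters' processing notes these were made with Cell Ranger 6.1.0 on GRCm38. Whether intronic reads or strand were counted is not given in the sources used here. The libraries held 12599, 8481, 8173 and 7366 barcodes and 122870443, 76617523, 75227337 and 74082610 UMIs (Sel1L fl/fl replicates 1 and 2, Sel1L SynCre replicates 1 and 2), of which 12362, 8436, 8065 and 7231 barcodes passed the filters. Members and gene lists were chosen with earlier results of these data known. UMIs of members were summed per library and fitted with edgeR 4.0.16 (TMM factors, low counts filtered, quasi-likelihood test, Benjamini-Hochberg adjustment over all genes tested) in R 4.3.3. The difference between classes was an interaction term in the same kind of fit. Levels across classes are CPM of the summed nuclei, and normalised CPM uses TMM factors. The SE of a log2 fold change was derived from the test, as its size divided by the square root of the F statistic. With 2 mice per group, p-values measure the spread between these samples, and intervals cover counting error only.

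Genes were named by rule: Sel1l, up to 12 called genes in each direction with the largest fold changes and at least 20 UMIs, called members of the lists, and up to 4 abundant members of the ERAD, chaperone, stress and one-carbon lists. Scrublet (scanpy 1.11.5) marked 1270, 575, 534 and 434 nuclei as doublets, 101, 26, 34 and 48 of them members, which were kept except in one alternative. Other alternatives were DESeq2 1.42.0, RLE factors, other count filters, the legacy fit, a prior count of 2, a fold threshold, a replicate block, leaving out each library, other marker thresholds and thinning. On simulated data the genotype fit recovered 81 of 100 genes changed by 1 and 98 of 100 changed by 2 on the log2 scale, with 7 unchanged genes called in a run of 13511 genes. The simulation gave every gene the same dispersion (0.0152) and changed only genes with at least 20 expected UMIs in the smallest library. It does not give the recovery for genes with fewer UMIs or a larger spread between mice. The lists of glutathione, cholesterol, autophagy, proteasome, heat shock, p53, ER calcium, vesicle release, translocon and ER to Golgi genes had median log2 fold changes of 0.04, -0.02, 0.03, 0.08, 0.17, -0.02, -0.06, 0.00, 0.25 and 0.15, with no call. 1 item among the genes that passed is not reported here.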

Additional observations from a re-analysis of the deposited data

Results flagged for a closer look

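The response to genotype differed between L6 CT nuclei and Sst interneuron nuclei, by the interaction test, for 4 of the named genes. Of the 41 genes that passed against Sst nuclei, 5 also passed by DESeq2 and 13 after thinning to the smallest total. As given above, the calls of both interactions depended on which libraries were included. The log2 fold change in L6 CT nuclei minus that in Sst nuclei was -1.75 for Dnajc3, -1.34 for Hsp90b1, -1.23 for Sel1l and -1.26 for Ell2. Hsp90b1 was at 64.6 and 67.6 normalised CPM in Sst nuclei of Sel1L fl/fl and at 296 and 205 in Sel1L SynCre. Ell2 was at 68.0 and 66.3 and at 104 and 91.9. Outside the naming rule, Hspa5 differed by -2.05 and Mbp by 1.51 (edgeR adjusted p = 0.0120 and 0.0229). Against other glutamatergic nuclei, the difference was -0.86 for Zfp804b and -0.62 for Unc5d, both lower in L6 CT nuclei, while in layer 6b nuclei, not tested alone, both were also lower in Sel1L SynCre.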

How the results depend on the processing

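The 31 calls of the genotype comparison (22 higher, 9 lower) gave way to 51 (33 and 18) by DESeq2, 20 of them among the 31, of which 10 had no adjusted p there and 1, Zfp804b, did not pass. They became 3 (2 and 1) with no filter on low counts, 56 (39 and 17) with at least 10 counts in every library, and 1 (1 and 0) when the fold change itself was tested against 0.5 on the log2 scale. They became 17 (12 and 5) with doublets removed, 17 (10 and 7) with at least 3 second markers, 8 (5 and 3) with at least 4 Foxp2 UMIs, 49 (31 and 18) with no Gad UMI and 67 (42 and 25) with no layer 6b UMI. With at least 1 second marker 15 genes were lower, and after thinning to the smallest total 5 were. Leaving out 1 library gave 73 to 809 calls, 37 to 487 higher and 30 to 322 lower, where the lone sample left is assumed to vary like the others. All 31 passed without either Sel1L fl/fl library, 23 of them without Sel1L SynCre replicate 1 and 27 without Sel1L SynCre replicate 2. The causes were not tested.

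The replicate number was fitted as a block in an added term and gave 179 calls (97 and 82), all 31 among them. Same-numbered libraries deviated together only weakly (r = 0.0551 over 13070 autosomal genes, which are not independent replicates), and same-numbered libraries share their sex. No label says that a number marks a litter, batch or day.

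Interaction calls against Sst nuclei were 5 by DESeq2, 71 with at least 10 counts, 77 by the legacy fit, 19 after thinning and 0 to 50 leaving out 1 library. Against other glutamatergic nuclei they were 18, 11, 43, 10 and 0 to 1. The difference in share of glutamatergic nuclei was -0.142 percentage points with doublets removed, -0.132 with at least 3 second markers, -0.389 with at least 4 Foxp2 UMIs, -0.790 after thinning, 0.263 with at least 1 second marker and -0.851 to 1.03 leaving out 1 library, against 0.0893. That in kept nuclei, 0.298, became 0.0843 with at least 3 second markers, 0.0596 with at least 4 Foxp2 UMIs, 0.492 with at least 1 second marker, -0.288 after thinning and -0.229 to 0.824 leaving out 1 library.

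Named genes that passed kept their direction in every alternative fit that gave them a value. Named genes that had not passed did so in 20 cases: Dnajc3 by DESeq2 and with at least 10 counts, Dnajc3, Txndc11 and Hsp90b1 under the replicate block, these 3 and Slc38a2 without Sel1L fl/fl replicate 2, and Dnajc3 and Hsp90b1 without Sel1L SynCre replicate 2. Without Sel1L fl/fl replicate 1 these 4, Dnajc1, Eif2ak3, Slc7a8, Mat2b and Sel1l passed (Sel1l 0.47, and 0.19 to 0.59 leaving out 1 library). Signs near 0 turned among genes that did not pass. The Atf6 log2 fold change was -0.13 with at least 3 second markers, -0.00166 with at least 4 Foxp2 UMIs, -0.00468 with no Gad UMI and -0.085 to 0.11 leaving out 1 library. The Eif2ak4 log2 fold change was -0.00103 with no filter, -0.043 and -0.016 with at least 3 or 1 second markers, and -0.084 to 0.086 leaving out 1 library. Got1 was at -0.038 with at least 3 second markers. Leaving out 1 library gave -0.011 to 0.16 for March6, -0.061 to 0.22 for Slc38a1, -0.081 to 0.30 for Slc7a6 and -0.022 to 0.21 for Mat2a.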
